A study of Medicago sativa with 86 samples.

Results

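In alfalfa (Medicago sativa) leaves, 100 of 16039 genes were selected for a transcript level that was highest in 1 of 4 plant lines, ineffective Saranac. Here a line is a cultivar combined with a nitrogen fixation class. The 85 libraries of polyadenylated leaf RNA came from ineffective Saranac (21 libraries, 11 at 600 ppm CO2 and 10 at 420 ppm), effective Saranac (21, with 10 and 11), ineffective Agate (21, with 11 and 10) and effective Agate (22, with 11 and 11). All plants of the study received rhizobium and a weekly feed of 6, 10 or 16 mM KNO3, and each combination of line, nitrate and CO2 held 3 or 4 libraries. Plants at 600 and at 420 ppm stood in different growth chambers, and an effect of the gas and one of the chamber cannot be told apart. Whether plant or bacterium makes a symbiosis ineffective here is not stated in the labels. They also leave unsaid how many plants went into a library, and the p-values below thus refer to variation among libraries, which may be technical.

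Alfalfa obtains nitrogen from soil nitrate and from rhizobia in root nodules, which reduce atmospheric nitrogen to ammonium. An ineffective symbiosis delivers little or no fixed nitrogen, so that such a plant depends on the nitrate it is fed. Alfalfa is an outcrossing polyploid whose cultivars are populations, and plants of 1 cultivar can carry different alleles and different gene copies.

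The selection used the levels themselves. Counts were scaled to CPM, the count of a gene per 1000000 counts of its library, and a gene was considered when it averaged at least 2 CPM. Its level in a line was the mean of log2(CPM+1) with the 6 combinations of nitrate and CO2 weighted equally. The score of a gene is its level in ineffective Saranac minus the highest of its levels in the other 3 lines, and the members are the 100 genes with the highest scores. Levels of the lines are therefore given as a description, without a test. Scores ran from 4.57 to 1.16 log2 units with a median of 1.48, and 19 members scored at least 2. The last member, MsG0580028763.01, had a median of 74.03 CPM in ineffective Saranac against 24.5 CPM in effective Saranac, 26.04 in ineffective Agate and 31.96 in effective Agate. The first gene outside, MsG0880044837.01, scored 1.16 as well, with a median of 5.35 CPM in ineffective Saranac against 0.694, 1.62 and 0.703 CPM in the same order of lines. Genes carry only the identifiers of the count table: 0 of 100 members matched the available table of alfalfa gene names, so no member is given a function, and whether leaf marker genes were present could not be checked. CPM values do not account for gene length and are compared within a gene only. In whole leaves, fewer cells of a type and less RNA per cell cannot be told apart.

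The same selection gave smaller scores for the other lines. The 100th gene scored 1.16 for genes highest in ineffective Saranac, 0.913 for genes highest in ineffective Agate, 0.581 for effective Agate and 0.492 for effective Saranac. Genes lowest in ineffective Saranac reached 2.73 at most and 0.982 at the 100th place.

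MsG0480020270.01 had the highest score. It ranged over 28.9 to 4285 CPM in ineffective Saranac with a median of 1849, and averaged 1557 ± 1068 CPM (SD, n = 21). Its medians were 21.5 CPM in effective Saranac, 9.64 in ineffective Agate and 7.83 in effective Agate. Single libraries of those lines nevertheless reached 2258, 343 and 2405 CPM, so the ranges overlapped and 2 libraries of other lines lay at or above the ineffective Saranac median. MsG0480022056.01, at the third place, showed the same form: it ran from 3.83 to 4038 CPM in ineffective Saranac with a median of 1281, against medians of 41.6, 2.12 and 13.4 CPM in effective Saranac, ineffective Agate and effective Agate and highest values of 2996, 56.7 and 1543 CPM. MsG0580024096.01 had a median of 777.5 CPM in ineffective Saranac (2.93 to 1709) against 14.9, 8.28 and 25.03 CPM in effective Saranac, ineffective Agate and effective Agate, and 1 effective Agate library held its highest value of all, 3893 CPM. These genes were abundant in most ineffective Saranac libraries and in a few libraries elsewhere.

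Other leading members were low in most libraries outside ineffective Saranac. MsG0380013875.01 had a median of 173 CPM in ineffective Saranac (0.0536 to 553), against 0.254 CPM in effective Saranac, 0.0518 in ineffective Agate and 0.0920 in effective Agate. It reached 1 CPM in 16 of 21 ineffective Saranac libraries, 6 of 21 effective Saranac libraries, 1 of 21 ineffective Agate libraries and 2 of 22 effective Agate libraries. Its highest values were 256 CPM in effective Saranac and 155 CPM in effective Agate. In 5 libraries of other lines it was at 86.7 CPM or more, the lowest level among its 15 high libraries of ineffective Saranac. MsG0180000170.01 lay between 10.3 and 66.7 CPM in all 21 ineffective Saranac libraries, with a median of 27.5. In effective Saranac it was at 1 CPM or more in 5 libraries, with a highest value of 91.4 CPM, in ineffective Agate in 3 and in effective Agate in 7 (highest 30.4 CPM), and it had no count in 8, 15 and 14 of their libraries. MsG0780039536.01 was the only one of the first 10 whose ineffective Saranac median lay above every library of the other lines. That median was 44.7 CPM in ineffective Saranac (0.708 to 212) against 1.17, 1.64 and 1.47 CPM, and its highest value elsewhere was 7.67 CPM in effective Agate. In 16 of 21 ineffective Saranac libraries it exceeded every library of the other lines.

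The rest of the first 10 had wide ranges in ineffective Saranac. MsG0280010631.01 ran from 0 to 979 CPM there with a median of 297, against medians of 0.176, 0.762 and 3.49 CPM in effective Saranac, ineffective Agate and effective Agate and a highest value of 1277 CPM in effective Saranac. MsG0480022550.01 ran from 1.03 to 413 CPM with a median of 179, against medians of 4.45, 4.42 and 5.97 CPM. MsG0380014168.01 ran from 2.44 to 1222 CPM with a median of 167, against medians of 17.7, 5.84 and 10.3 CPM. Each of them had at least 1 ineffective Saranac library below the medians of all 3 other lines. MsG0880045229.01, with 0 to 600.1 CPM and a median of 12.2 against 0.491, 0.187 and 0.433 CPM, was highest in ineffective Saranac in only 4 of the 6 combinations of nitrate and CO2.

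**Figure D1:**
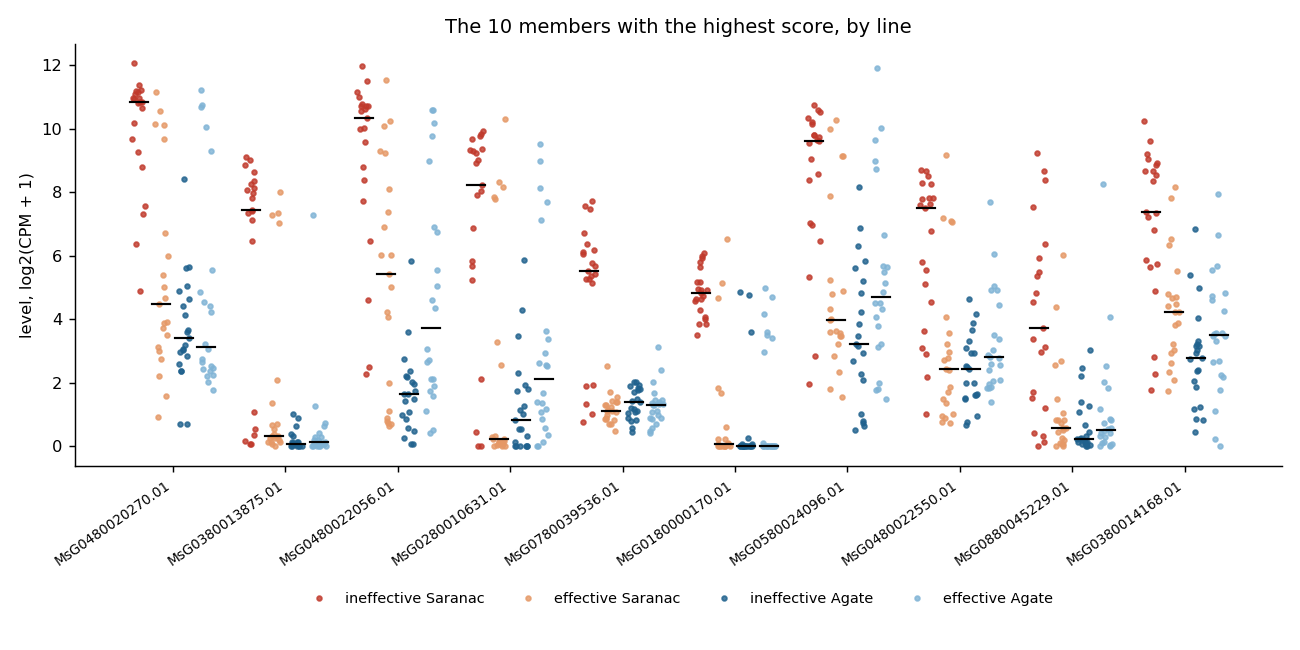
Level of the 10 members with the highest score, as log2(CPM + 1), in each of the 85 libraries. Points are libraries coloured by line, ineffective Saranac leftmost, and bars are medians. The medians of ineffective Saranac lie above those of the other lines. For all of these genes but MsG0780039536.01 some library of another line lies above the ineffective Saranac median, and for all but MsG0480020270.01 and MsG0180000170.01 some ineffective Saranac library lies below the median of another line.

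No member separated the line completely. The libraries of ineffective Saranac all lay above all other libraries for 0 of 100 members and for 0 of the 16039 genes (0.0%). For 8 members the ineffective Saranac median exceeded the highest value of the other 64 libraries, and for 14 the lowest ineffective Saranac library exceeded the median of the others. The other 92 members had at least 1 library of another line at or above the ineffective Saranac median, with a median of 5 such libraries over all members, and 24 members had 10 or more. The largest number was 64. For 5 members the ineffective Saranac median was below 1 CPM, so libraries of other lines could reach it at a level near 0. Ineffective Saranac was the highest line in all 6 combinations of nitrate and CO2 for 38 members, a state that 265 of the 16039 genes (1.65%) shared, and in 5 of 6 for 43 members. The remaining 19 were highest in 4 or fewer, with a minimum of 3. The members were chosen by the mean over these combinations, so all counts of members in this paragraph partly follow from the selection. For the counts that use a median or a lowest library no share over all genes was computed.

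At a level of 1 CPM, 56 members were present in all 21 libraries of ineffective Saranac and 13 in all 64 of the others. For 5 members, most libraries of ineffective Saranac were below 1 CPM. There were 16 members that reached 1 CPM in at most 16 of the 64 other libraries, and 9 of them did so in 16 or more ineffective Saranac libraries. MsG0580025860.01, chosen here after its values were seen, is an example: it reached 1 CPM in 17 of 21 ineffective Saranac libraries, 1 of 21 effective Saranac libraries, 2 of 21 ineffective Agate libraries and 0 of 22 effective Agate libraries. MsG0580026014.01, chosen in the same way, was at 1 CPM or more in 17 ineffective Saranac libraries (median 15.4 CPM) and 7 effective Saranac libraries (highest 45.9 CPM), and in 0 of 43 Agate libraries, where its highest value was 0.870 CPM. The counts at 1 CPM use the levels that chose the members, so they partly follow from the selection. No share over all genes was computed for them. The line with the next highest level was effective Saranac for 38 members, ineffective Agate for 34 and effective Agate for 28. Among all 5149 genes whose level was highest in ineffective Saranac, those shares were 25.8%, 52.1% and 22.1%.

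The steadiest members were of modest level. MsG0580026340.01 had the smallest SD about the means of the nitrate and CO2 combinations in ineffective Saranac, 0.27 log2 units, and ran from 4.76 to 17.5 CPM there with a median of 10.3, against medians of 3.07, 2.70 and 3.80 CPM in effective Saranac, ineffective Agate and effective Agate. MsG0480020375.01, with an SD of 0.37, ran from 7.01 to 25.3 CPM with a median of 15.8, against medians of 4.45, 5.38 and 4.24 CPM. For both of them 0 of the 64 other libraries reached the ineffective Saranac median. At the other end, MsG0380013875.01 and MsG0280010631.01 had SDs of 3.46 and 3.03. The median SD was 1.51 over the members and 0.455 over all 16039 genes, so the members varied widely between libraries of like treatment. The same libraries gave the scores, and choosing the largest differences can favour genes with a wide spread, so this may partly follow from the selection. MsG0780041022.01 took more counts than all but MsG0480020270.01 and MsG0480022056.01: it averaged 778 ± 785 CPM (SD, n = 21) in ineffective Saranac, against 252.5 ± 189 CPM in effective Saranac (n = 21), 333 ± 371 CPM in ineffective Agate (n = 21) and 410 ± 549.5 CPM in effective Agate (n = 22).

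Libraries of ineffective Saranac differed in how many members they held at a high level. Counting for each library the members at or above their own ineffective Saranac median, these libraries held 22 to 83 of 100 with a median of 52, the middle being fixed by the definition. For 5 members that median was below 1 CPM, so a library could be counted for them at a level near 0. The other libraries held 2 to 32 in effective Saranac (median 12), 2 to 22 in ineffective Agate (median 9) and 3 to 34 in effective Agate (median 8). The highest of them were effective Agate replicate 3 at 10 mM and 420 ppm with 34 members, effective Saranac replicate 1 at 16 mM and 420 ppm with 32, effective Saranac replicate 4 at 6 mM and 600 ppm with 28 and effective Agate replicate 3 at 16 mM and 420 ppm with 23. The lowest library of ineffective Saranac, replicate 3 at 6 mM and 420 ppm with 22 members, has a number in its title from the stretch used for 16 mM libraries and was kept as labelled. The members together took 1.17% of the counts of an ineffective Saranac library (median, 0.223% to 2.06%), against 0.162% in the others (0.0584% to 1.64%). Total counts were 15940070 to 25910031 per ineffective Saranac library and 13543807 to 25910031 over all grouped libraries.

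**Figure D2:**
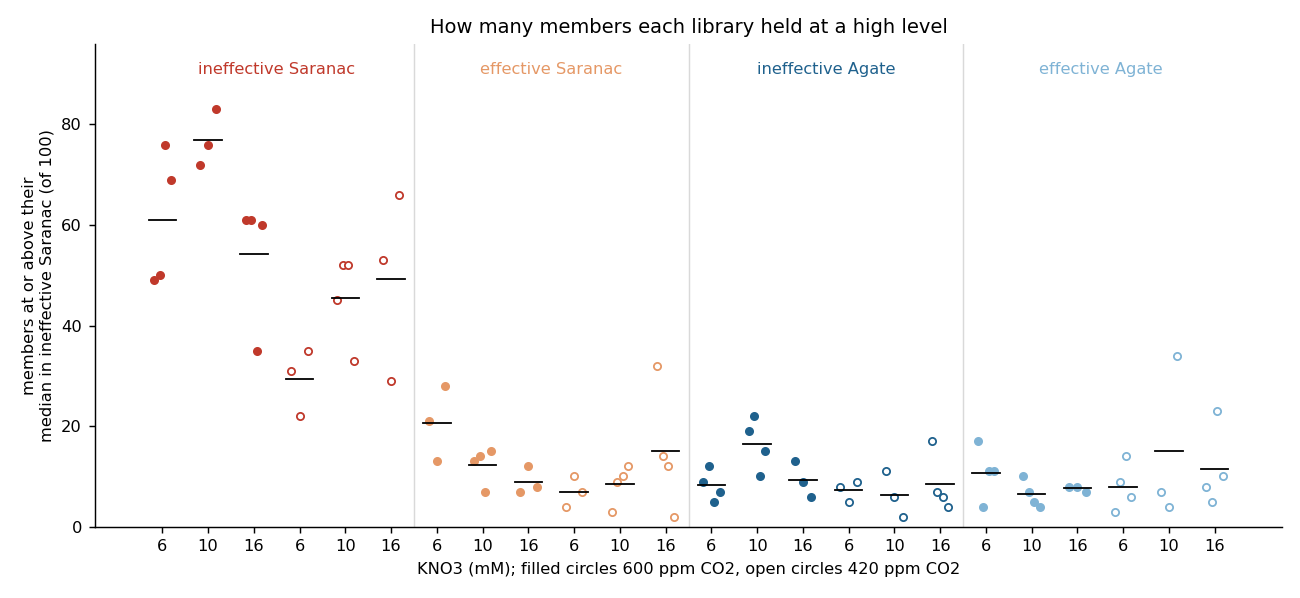
Number of the 100 members at or above their own median in ineffective Saranac (vertical axis) in each library, by line and KNO3 level in mM (horizontal axis). Filled circles are 600 ppm CO2, open circles 420 ppm, and bars are means of 3 or 4 libraries. Ineffective Saranac spans 22 to 83, and the highest library of any other line holds 34.

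Several members were either abundant or near 0 in ineffective Saranac, with no library in between. A split was counted when neighbouring libraries in the order of levels differed by at least 3 log2 units with at least 3 of the 21 libraries on each side, a rule set after the values were seen. It held for 8 members and for 24 of the 16039 genes (0.15%). The levels in these 21 libraries also gave the scores, so the larger share among the members partly follows from the selection. MsG0680035315.01 lay between 60.3 and 106 CPM in 6 libraries of ineffective Saranac and at 0.188 CPM or less in the other 15, and no library of another line reached 60.3 CPM. MsG0580027607.01 lay between 48.7 and 98.9 CPM in 8 libraries and at 0.455 CPM or less in the other 13. MsG0580027714.01 (at least 26.02 CPM against at most 0.650) and MsG0580027716.01 (36.2 to 70.6 CPM against at most 0.488) were split in the same proportion. All 3 were high in exactly the same 8 libraries, 2 each at 10 and 16 mM with 420 ppm and at 6 and 10 mM with 600 ppm, and low in the remaining libraries of those groups, and 0 of the 64 libraries of other lines reached their high range. In 3 libraries of effective Saranac they lay just under it or at an intermediate level. For MsG0580027607.01 these held 47.7 CPM (replicate 3 at 6 mM and 420 ppm), 33.2 CPM (replicate 4 at 6 mM and 600 ppm) and 30.45 CPM (replicate 4 at 10 mM and 600 ppm). In the same 3 libraries MsG0580027714.01 had 11.4, 20.7 and 17.3 CPM and MsG0580027716.01 had 12.01, 22.4 and 23.04 CPM, and every other library of another line was at 5.10 CPM or less for all 3 genes. MsG0780039536.01 was high in 16 libraries and low in 5, and MsG0380013875.01 was high in 15 and low in 6. Libraries with the same line, nitrate and CO2 thus fell on both sides: for each of MsG0680035315.01, MsG0580027607.01, MsG0580027714.01 and MsG0580027716.01 this was so in 4 of the 6 groups. Near-identical copies or differing alleles can gain or lose reads in the counting, and their part in these splits was not tested.

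A group of 22 members varied together from library to library. It was found in the 64 libraries of the other 3 lines by average-linkage clustering of the deviations from the group means at a mean correlation of 0.4, and held 6 of the 10 and 11 of the 20 highest scores, among them MsG0480020270.01, MsG0480022056.01, MsG0280010631.01, MsG0580024096.01, MsG0480022550.01 and MsG0880045229.01. In those 64 libraries the median Pearson correlation of its 231 pairs was 0.67, by construction. In the 21 ineffective Saranac libraries, which were not used to form the group, the median was 0.77 (Spearman 0.74) and 230 of 231 pairs were positive, against 0.034 for the 4719 other pairs of members. These are correlations over libraries of deviations that share library composition, and are a description. Identifiers of the group carry 7 different codes after the letters MsG.

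The summed level of these 22 members varied widely, and a limit of 2000 CPM, set after the values were seen, is used to count libraries with a high sum. The sums next to it were 1122 and 1939 CPM below, the higher in ineffective Agate, and 2998 CPM above. Over the limit were 16 of 21 libraries of ineffective Saranac, 5 of 21 of effective Saranac, 0 of 21 of ineffective Agate and 5 of 22 of effective Agate. Ineffective Saranac libraries summed to 137 CPM at the lowest, 7236 at the median and 14700 at the highest, and the highest sums elsewhere were 15300 CPM in effective Saranac, 1939 in ineffective Agate and 13910 in effective Agate. At 6 mM and 420 ppm the 3 ineffective Saranac libraries summed to 239.5, 137 and 5721 CPM, so libraries of 1 group lay on both sides of the limit. The line next below ineffective Saranac was effective Agate for 14 of the 22, effective Saranac for 8 and ineffective Agate for 0. Of the remaining 78 members an ineffective Saranac library held 21 to 63 at or above their median, including 22 to 35 in the 4 libraries where it held none of the 22, against 2 to 19 in the libraries of other lines.

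**Figure D3:**
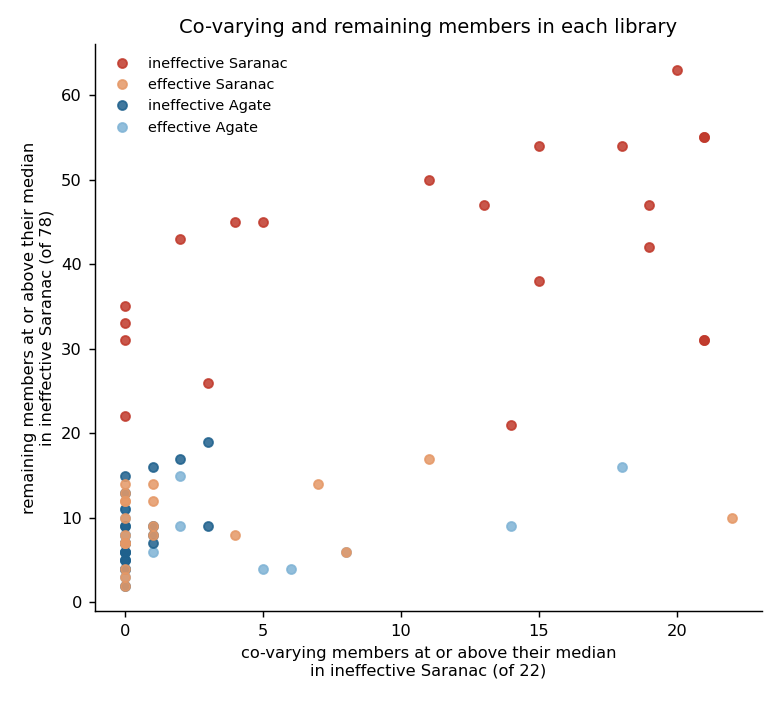
Members at or above their own median in ineffective Saranac in each library, for the 22 co-varying members (horizontal axis) and the remaining 78 (vertical axis). Each point is a library, coloured by line. Ineffective Saranac libraries hold 21 to 63 of the 78 and all others at most 19, while on the horizontal axis libraries of ineffective Saranac run from 0 to 21 and 1 effective Saranac library reaches 22.

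The excess of the line was smallest in ineffective Saranac plants at 6 mM KNO3 and 420 ppm CO2. The median over members of the group mean of log2(CPM+1) was 3.10 there, against 3.91 at 10 mM and 4.02 at 16 mM with 420 ppm and 4.34, 4.75 and 4.37 at 6, 10 and 16 mM with 600 ppm. CPM of most genes were higher at 600 ppm, where the most abundant genes took a smaller share of the counts: the same median over the 16039 genes was 3.60, 3.67 and 3.76 at 6, 10 and 16 mM with 420 ppm and 3.98, 4.03 and 4.09 with 600 ppm. The 6 mM and 420 ppm group was the lowest of the 6 for 60 of 100 members. In it ineffective Saranac was the highest line for 58 members, with a median excess of 0.21 log2 units, and in the other groups for 90 to 96 members with a median excess of 1.40 to 1.65. Over the 16039 genes it was the highest line for 22.4% in this group and for 25.9% to 33.9% in the others. The 3 libraries at 6 mM and 420 ppm had member medians of 2.44 (replicate 3), 3.04 (replicate 2) and 3.56 (replicate 4). The highest of these lies above the lowest library at 10 mM with 420 ppm, 3.51, and below the lowest at 16 mM, 3.61. Replicate 3 is the library whose title number lies in the stretch used for 16 mM.

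**Figure D4:**
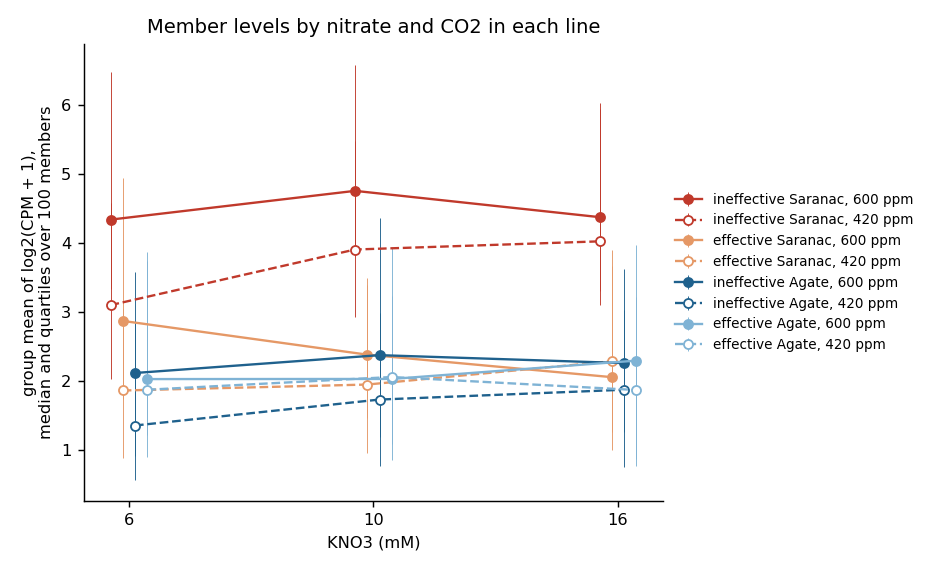
Median and quartiles over the 100 members of the group mean of log2(CPM + 1), by KNO3 level (horizontal axis, mM), for each line at 600 ppm CO2 (solid, filled) and 420 ppm (dashed, open). Ineffective Saranac lies above the other lines at every nitrate and CO2 level, and its lowest point, 3.10, is at 6 mM and 420 ppm.

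The comparison of CO2 levels within a line does not use the quantity that chose the members. In ineffective Saranac 18 members rose at 600 against 420 ppm and 6 fell (quasi-likelihood F-test of edgeR, Benjamini-Hochberg adjusted p under 0.05 over 24386 genes). Of all genes tested 12.6% rose and 12.6% fell, so the members' 24 calls are near the background in number. The rises include MsG0680035315.01 (log2 fold change 6.64, adjusted p = 0.0033), whose medians were 0.0562 CPM at 600 ppm and 0 CPM at 420 ppm. It was high in 3 libraries at 10 mM and 420 ppm and in 1 library at each nitrate level with 600 ppm. Its fitted size rests on the 6 and 16 mM groups at 420 ppm, where every library was at 0.188 CPM or less. The difference of log2(CPM+1) was 0.20. With TMM scaling the median difference of log2(CPM+1) between the CO2 levels was 0.42 over the members and 0.01 over the 16039 genes, and 65 of 100 members were positive against 51.2% of these genes. In the edgeR fit 56 of 100 members were positive against 50.6% of all genes tested, and the median log2 fold change of the members was 0.28. On column totals the median differences were 0.71 over the members and 0.295 over all of these genes. The composition of the libraries moved with CO2. The 100 most abundant genes took 23.7% to 31.7% of the counts of an ineffective Saranac library at 600 ppm (median 27.2%), against 27.7% to 44.9% at 420 ppm (median 42.01%), where replicate 1 at 10 mM with 27.7% was the 1 library within the range of 600 ppm. The medians at 600 and 420 ppm were 33.4% and 42.3% in effective Saranac, 26.95% and 41.9% in ineffective Agate and 33.75% and 41.4% in effective Agate. The part of this shift in the CO2 differences was not tested. Without the replicate 2 libraries 12 members rose and 2 fell.

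MsG0180004898.01 had the lowest adjusted p. It ran from 166 to 313 CPM at 600 ppm with a median of 242, against 0.317 to 157 CPM with a median of 11.2 at 420 ppm. All 11 libraries at 600 ppm lay above all 10 at 420 ppm, which was so for this 1 member and for 2.26% of the 16039 genes. The log2 fold change was 3.80 ± 0.73 (SE, adjusted p = 6.4e-05). In the other lines it was 1.05 in effective Saranac (adjusted p = 0.28), 3.10 in ineffective Agate (adjusted p = 0.0011) and 0.66 in effective Agate (adjusted p = 0.55). MsG0280009804.01 ran from 7.49 to 374 CPM at 600 ppm with a median of 21.1, against 1.10 to 14.4 CPM with a median of 4.84 at 420 ppm, and 6 of 11 libraries at 600 ppm exceeded all at 420 ppm. Its log2 fold change was 3.64 ± 0.74 (SE, adjusted p = 0.00013).

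Further rises, named after their values were seen, had higher levels at 600 ppm in most libraries. MsG0880045818.01 had 55.4 to 619 CPM at 600 ppm with a median of 297, against 0.118 to 114 CPM with a median of 20.8 at 420 ppm (log2 fold change 3.99 ± 0.88 SE, adjusted p = 0.00043). MsG0180003419.01 had 49.96 to 207 CPM with a median of 94.9 at 600 ppm, against 1.87 to 57.5 CPM with a median of 4.32 at 420 ppm (log2 fold change 3.30 ± 0.69 SE, adjusted p = 0.0002). The libraries of the 2 CO2 levels overlapped for both. They also rose in effective Saranac (adjusted p = 0.0014 and 0.036) and in ineffective Agate (adjusted p = 0.019 and 0.00035), and did not pass the test in effective Agate (adjusted p = 0.082 and 0.41).

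Among the members that fell, MsG0880043516.01 had 1.36 to 72.9 CPM at 600 ppm with a median of 7.63, against 3.23 to 155.5 CPM with a median of 91.4 at 420 ppm. Its log2 fold change was -2.03 ± 0.60 (SE, adjusted p = 0.0083), and adjusted p was 0.32 without the replicate 4 libraries and 0.087 in a model of the ineffective Saranac libraries alone. MsG0380014129.01 had 6.95 to 70.8 CPM at 600 ppm with a median of 17.4, against 11.95 to 203 CPM with a median of 84.3 at 420 ppm, and fell by 1.81 on the log2 scale (SE 0.56, adjusted p = 0.012). It fell in the other 3 lines as well, by 3.62 in effective Saranac (adjusted p = 2.3e-05), 2.77 in ineffective Agate (adjusted p = 0.00039) and 3.93 in effective Agate (adjusted p = 9.8e-06). Its call in ineffective Saranac was lost without the replicate 1 libraries (adjusted p = 0.28) and without those of replicate 2 (adjusted p = 0.066). By limma the call of MsG0380014129.01 was lost without replicate 1 at 16 mM and 420 ppm (adjusted p = 0.083), and that of MsG0880043516.01 without any 1 of 5 libraries, with a log2 fold change of -1.21 without replicate 4 at 6 mM and 420 ppm (adjusted p = 0.13). The libraries of the 2 CO2 levels overlapped for both genes.

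The calls within other lines compare other libraries than those of ineffective Saranac, but come from the same fit with a shared estimate of the spread. In effective Saranac 11 members rose and 9 fell, against 9.67% and 8.98% of all genes tested, and in ineffective Agate 12 rose and 2 fell, against 7.13% and 10.3%. Among all genes tested that rose in ineffective Saranac, 30.7% rose in effective Saranac too (40.2% of those that rose there), 38.3% in ineffective Agate (68% of those there) and 26.7% in effective Agate (42.6% of those there), and 45.3% rose in none of these and 13% in all. Of the 18 members that rose in ineffective Saranac, 4 rose in effective Saranac (22.2% of the 18 and 36.4% of the 11), 6 in ineffective Agate (33.3% of the 18, and 6 of the 12) and 4 in effective Agate (22.2% of the 18, and 4 of the 8). Of these 18, 1 fell in effective Agate, 8 rose in none of the other lines, MsG0680035315.01 among them, and 0 rose in all. Of the 6 that fell, 4 did not fall in any other line by this test, against 34.1% of all genes that fell in ineffective Saranac. Whether these shares differ from those of all genes was not tested. The counts in those 2 lines depend on single sets of replicates: without replicate 4, 2 members rose and 6 fell in effective Saranac, and 4 rose and 2 fell in ineffective Agate. Single libraries moved them too: limma called 11 members in effective Saranac, but 6 without replicate 4 at 10 mM and 420 ppm and 7 without replicate 3 at 16 mM, replicate 2 at 10 mM or replicate 3 at 6 mM with 600 ppm or replicate 1 at 16 mM with 420 ppm. In ineffective Agate it called 12, but 21 without replicate 1 and 6 without replicate 4 at 10 mM and 420 ppm.

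In effective Agate more members fell than rose: 8 rose and 21 fell at 600 ppm, against 7.93% and 7.19% of all genes tested, and 16 of the 21 that fell belonged to the 22 co-varying members, all of which had a negative difference with TMM scaling and 20 of which had one on column totals (median difference of log2(CPM+1) -1.57 with TMM, against 0.01 over the 16039 genes). These 22 are correlated and do not count as independent genes. They were grouped by deviations in libraries that include the effective Agate ones compared here, so their common direction is no separate result. The 11 effective Agate libraries at 600 ppm summed to 122 to 1106 CPM over the 22, and of the 11 at 420 ppm, 5 summed to 4439 to 13910 CPM and the other 6 to between 167 and 392.4 CPM. Of those 5 high libraries 3 are replicate 3. Without the replicate 3 libraries 14 members rose and 5 fell, 3 of the 22 among them, and without only the 2 of them at 10 and 16 mM and 420 ppm 13 rose and 7 fell, 4 of the 22 among them. By limma 17 members were called, but 9 without replicate 1 at 16 mM and 600 ppm. In ineffective Agate 20 of the 22 were positive (median difference 0.82) and 4 were called. In ineffective Saranac 1 was called in each direction, and the sign of the rest depended on the scale: 17 of 22 were positive as differences of log2(CPM+1) (median 0.80), against 12 of 22 as fold changes of the edgeR fit (median log2 fold change 0.11).

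MsG0480020270.01, 1 of the 22, had 3.04 CPM at the lowest, 4.84 at the median and 45.5 at the highest in the effective Agate libraries at 600 ppm, against 2.45, 27.8 and 2405 CPM in those at 420 ppm. The CO2 levels overlapped, and 5 of the 11 libraries at 420 ppm lay at 634 CPM or more. By edgeR it fell by 6.42 on the log2 scale (SE 1.13, adjusted p = 6.9e-05), while the difference of mean log2(CPM+1) was -3.84. The log2 fold change was -4.58 without the replicate 3 libraries (adjusted p = 0.0063), -4.16 without the 2 of them at 10 and 16 mM and 420 ppm (adjusted p = 0.0019) and -3.99 by limma (adjusted p = 0.0039), so the call held in these alternatives at a smaller size.

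The response to CO2 differed between ineffective Saranac and the mean of the other lines for 2 members. MsG0280009804.01 differed by 3.72 ± 0.81 log2 units (SE, adjusted p = 0.0048). In the other lines its medians were 3.04 CPM at 600 ppm and 2.76 at 420 ppm in effective Saranac, 1.87 at 600 ppm and 4.4 at 420 ppm in ineffective Agate and 4.06 and 3.05 in effective Agate. MsG0580026467.01 ran from 4.32 to 22.2 CPM at 600 ppm with a median of 16.0 in ineffective Saranac, against 1.08 to 9.73 CPM with a median of 2.63 at 420 ppm, and differed from the mean of the others by 1.79 ± 0.52 (SE, adjusted p = 0.039). It also rose in ineffective Agate, where its medians were 3.05 CPM at 600 ppm and 1.06 at 420 ppm (adjusted p = 0.024). The 2 calls, both positive, stand against 1.92% positive and 1.35% negative calls among all genes tested, a share close to that of the members. Both were lost without replicate 2, 3 or 4, and MsG0580026467.01 also without a filter on low counts (adjusted p = 0.059), without ineffective Saranac replicate 3 at 6 mM and 420 ppm (0.075) and without the 2 replicate 3 libraries of effective Agate at 10 and 16 mM and 420 ppm (0.063). By limma 2 members were called, but 6 without ineffective Saranac replicate 1 at 10 mM and 4 without its replicate 4 at 6 or at 16 mM, all at 420 ppm.

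**Figure D5:**
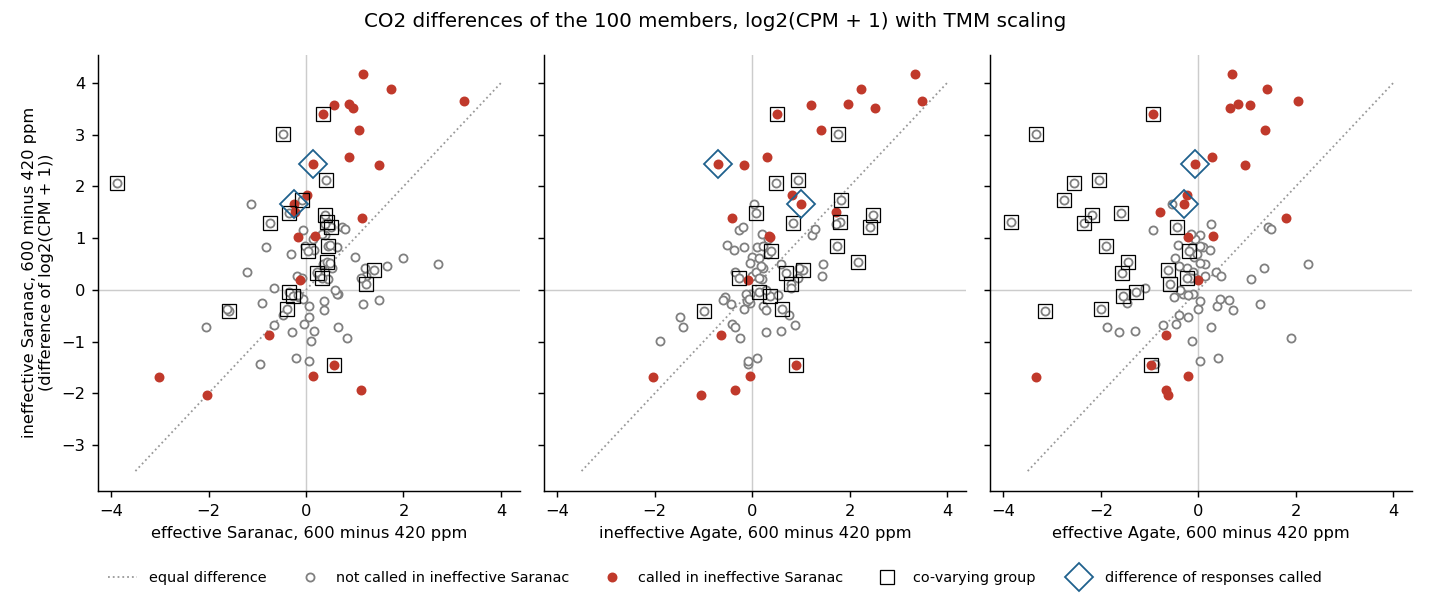
Difference of log2(CPM + 1) with TMM scaling between 600 and 420 ppm CO2 for each of the 100 members, in ineffective Saranac (vertical axis) against each other line (horizontal axes). Filled red points were called in ineffective Saranac, squares mark the 22 co-varying members, diamonds the 2 members whose responses differed, and the dotted line marks equal differences. In effective Agate all 22 squares lie left of 0 (20 of 22 on column totals), and in ineffective Agate 20 of 22 lie right of 0.

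Nitrate gave no call by itself. In ineffective Saranac 0 of 24386 genes passed the test between 6 and 16 mM (0.0%) and 0 between 6 and 10 mM (0.0%), members included. At an unadjusted p under 0.05 there were 1976 genes with 7 members and 1750 genes with 19 members, the Wald test of DESeq2 called 1 and 4 members, and limma called 0 of them in both. Without a call, 75 of 100 members had lower means at 6 than at 10 mM, all 22 co-varying members among them, against 7813 of the 16039 genes. The median difference of log2(CPM+1) was -0.54 over the members and 0.01 over the 16039 genes. Within 600 ppm the median difference between 6 and 10 mM was -0.33 over the members and -0.002 over the 16039 genes. Within 420 ppm it was -0.90 over the members and 0.015 over the 16039 genes. Between 6 and 16 mM the direction turned with CO2. Within 600 ppm 63 of 100 members and 8145 of the 16039 genes had higher means at 6 than at 16 mM, with median differences of 0.30 and 0.006. Within 420 ppm 73 members and 8227 genes had lower means at 6 mM, with median differences of -1.24 and -0.015. Over both CO2 levels the median was -0.37 over the members and -0.009 over the 16039 genes. The means at 6 mM and 420 ppm rest on 3 libraries, among them replicate 3, whose title number lies in the stretch used for 16 mM.

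The test of whether the response to CO2 differed between nitrate levels gave 2 calls. At 6 mM the median difference between 600 and 420 ppm over the members was 1.38, at 10 mM it was 0.55 and at 16 mM it was -0.35, and over the 16039 genes it was 0.01 at each of them. The response at 6 mM exceeded that at 16 mM for MsG0780039665.01 by 6.20 ± 1.33 log2 units and for MsG0580027607.01 by 15.65 ± 3.35 (SE, adjusted p = 0.0495 for both). Positive calls were 0.0287% and negative calls 0.0123% of all genes tested. Both members were picked out by their calls. MsG0780039665.01 had 14.7, 172, 139.5 and 282 CPM at 6 mM and 600 ppm, against 7.71, 4.55 and 4.32 CPM at 6 mM and 420 ppm, and 26.8, 11.8, 20.97 and 96.4 CPM at 16 mM and 600 ppm, against 54.1, 18.4 and 249 CPM at 16 mM and 420 ppm. The groups did not overlap at 6 mM and overlapped at 16 mM. MsG0580027607.01 is 1 of the genes with a split: it had 48.7, 0.232, 0.314 and 75.2 CPM at 6 mM and 600 ppm, against 0, 0.217 and 0 CPM at 6 mM and 420 ppm, and 0.156 to 0.423 CPM at 16 mM and 600 ppm, against 61.8, 0.455 and 49.4 CPM at 16 mM and 420 ppm. The size of its fitted difference rests on groups in which every library was below 0.5 CPM. The calls of both were lost in most alternatives, among them the size factors of DESeq2 in the same test (adjusted p = 0.051 for both) and the omission of replicate 3 at 6 mM and 420 ppm (adjusted p = 0.21 for MsG0780039665.01 and 0.18 for MsG0580027607.01). Between 6 and 10 mM 0 members differed in their response to CO2, against 0.0082% positive and 0.0041% negative calls.

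Some members carry neighbouring identifiers, which consist of a 2-digit code and a running number. Their place in a genome is not given in the sources used here. There were 9 pairs of members, 18 genes in all, whose running numbers under 1 code differed by at most 10. The first pair, MsG0280010630.01 and MsG0280010631.01, had deviations from the group means that correlated at 0.90 over the 21 ineffective Saranac libraries and 0.87 over the 64 others. MsG0280010630.01 had a median of 9.29 CPM in ineffective Saranac (0 to 62.3), against medians of 0, 0 and 0.526 CPM in effective Saranac, ineffective Agate and effective Agate. Over the 9 pairs this correlation in ineffective Saranac ran from -0.33 (MsG0380012299.01 and MsG0380012304.01) to 1.00 (MsG0580027714.01 and MsG0580027716.01), and 7 of the 9 were above 0.8. Reads shared between near-identical neighbours could have been split by the counting, so the levels of single genes of a pair are uncertain. By code, 18 members carry 05 against 11.3% of the 16039 genes, 18 carry 03 against 13.9%, and 11 carry 06 against 6.39%, while 9 carry 01 against 14.5%.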

How the data were processed

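Leaf polyA RNA was sequenced from stranded libraries, and the authors deposited raw counts per gene identifier, made with featureCounts per the submitters' processing notes. Not given in the sources used here are aligner, build, annotation and strandedness of counting. Of 86 libraries 85 were grouped by their labels, and 1 whose labels contradict each other was left out. Total counts ran from 13543807 to 25910031 per library (median 19895909), which limits the precision of genes below 1 CPM. CPM were computed from column totals, and log2(CPM+1) was used for levels and for differences, which understates the change of low genes.

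Tests used edgeR 4.0.16 in R 4.3.3: TMM scaling, filterByExpr (24386 genes kept), a robust quasi-likelihood fit with 1 coefficient for each of 24 groups, and Benjamini-Hochberg adjustment over all genes tested, called under 0.05. Nitrate and CO2 contrasts weighted the other factor equally. Code was tested on simulated data. Alternatives were DESeq2 1.42.0 (its size factors in edgeR, or its Wald test), omission of the filter, a replicate block, leaving out replicates or doubtful libraries and, chosen after seeing the data, limma 3.58.1 (limma-trend, prior count 2) with each library left out. Descriptions used Python 3.11.15, pandas 2.3.3 and SciPy 1.17.1.

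The members and lists were chosen with earlier results of these data known. Genes named by rule were the 10 highest scores, the genes on both sides of the limit, up to 2 called members in each direction with the lowest adjusted p for the CO2 contrast, for its difference from the other lines and for 6 against 16 mM, the longest run of identifiers, the 3 most abundant members and the 2 least and 2 most variable ones.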

Additional observations from a re-analysis of the deposited data

Results flagged for a closer look

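In groups of 4 libraries, 1 library stood far from the other 3 in 8 of 73 cases screened. Chance flags about 1 in 20 of independent cases. The cases here share libraries, some of the genes co-vary and some were named for a large SD, so 8 of 73 does not measure an excess over chance. The cases were 20 named genes in the 3 groups of 4 of ineffective Saranac, and the number of members held in the 13 groups of 4 of all lines. All 8 flagged cases were in ineffective Saranac. The measure is the gap to the nearest library as a share of the whole range of the group. At 16 mM and 600 ppm replicate 3 was low for MsG0480020270.01 (0.934, log2(CPM+1) of 7.33 against 10.86 to 11.11), MsG0480022550.01 (0.844, 5.11 against 7.81 to 8.31), MsG0580026467.01 (0.941, 2.41 against 4.08 to 4.18) and the number of members at or above their ineffective Saranac median (0.962, 35 against 60 to 61). In the same group replicate 4 was low for MsG0380013875.01 (0.859, 1.09 against 7.34 to 8.36) and MsG0480020375.01 (0.886, 3.00 against 4.00 to 4.13). At 10 mM and 420 ppm replicate 4 was low for MsG0380014168.01 (0.879, 2.28 against 8.37 to 9.21). At 6 mM and 600 ppm replicate 3 was high for MsG0280009804.01 (0.916, 7.60 against 3.60 to 3.93).

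Differences between responses to CO2 were called for 4 members. Between ineffective Saranac and the mean of the other lines they were 3.72 for MsG0280009804.01 (adjusted p = 0.0048) and 1.79 for MsG0580026467.01 (adjusted p = 0.039). Between 6 and 16 mM in ineffective Saranac they were 15.65 for MsG0580027607.01 and 6.20 for MsG0780039665.01 (adjusted p = 0.0495 for both). These are log2 differences from the quasi-likelihood test of edgeR.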

How the results depend on the processing

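The count of members called for CO2 in ineffective Saranac was 24, 14 to 19 with each replicate number left out (14 without replicate 2) and 16 to 22 by limma with single libraries left out, against 19 with none left out. In effective Saranac it was 20, but 12 without a filter, 11 by limma and 8 to 12 without a replicate (6 to 13 by limma without a library, with 7 for 4 of the libraries). In ineffective Agate it was 14, but 26 by the Wald test of DESeq2 and 6 to 20 without a replicate (6 to 21 without a library). In effective Agate it was 29, but 17 by limma and 16 to 25 without a replicate (9 to 20 without a library). For the difference of ineffective Saranac from the other lines the 2 calls became 1 without a filter, 1 without ineffective Saranac replicate 3 at 6 mM and 420 ppm, 1 without the 2 effective Agate libraries, 8 by DESeq2 and 0 to 4 without a replicate (2 to 6 by limma without a library). Between 6 and 16 mM the 0 calls became 1 by DESeq2 and 0 to 1 without a replicate, and between 6 and 10 mM they became 4 by DESeq2. For the CO2 response at 6 against 16 mM the 2 calls became 0 with DESeq2 size factors, 0 without a filter, 0 with the replicate block, 0 without ineffective Saranac replicate 3, 0 without the 2 effective Agate libraries, 1 with ineffective Saranac alone, 1 by limma, 13 by DESeq2 and 0 to 11 without a replicate (0 to 3 without a library). At 6 against 10 mM the 0 calls became 3 by DESeq2. Of the 100 members, 63 were chosen again by the median over libraries, 74 to 82 without a replicate and 72 to 96 under the other forms of the rule. The alternatives were run for 11 pairs of a named gene and a comparison, and none of these fold changes was reversed in them. The cause of these changes was not tested. Replicate numbers showed no pairing between the CO2 levels within a line and nitrate level. Same-numbered libraries there had a median correlation of 0.0075 over 37 pairs (-0.187 to 0.225), against -0.012 over 112 pairs with different numbers. Whether a number is shared by lines or nitrate levels within a CO2 level was not tested. A replicate block gave 23 calls in ineffective Saranac, 15 in effective Saranac, 15 in ineffective Agate and 26 in effective Agate. Genes below 1 CPM rest on few counts.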

Other observations

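The library left out of all groups is labelled Agate at 10 mM and 420 ppm. It held 8 of the 100 members at or above their ineffective Saranac median, where the 43 grouped Agate libraries held 2 to 34 with a median of 8. It had 65 members at 1 CPM or more, and their summed level was 1134 CPM. For 2 members it lay above all 43 Agate libraries, and for 21 it lay below the lowest library of ineffective Saranac.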
